A study of Mus musculus with 6 samples.

Results

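The mitochondrial ribosomal protein genes of the mouse were followed from the zygote to the 2-cell embryo, and in zygotes that lack Pabpn1l. The members are all gene names that begin with Mrpl or Mrps and a digit, without names marked as pseudogenes, which gave 76 of the 23259 gene names in the deposited table. For a name that stood on several rows, the best-read row represents it. Of the members, 66 had at least 20 reads over the 3 groups and were tested.

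The study labelled new RNA in mouse embryos with 4-thiouridine (S4U), a uridine analogue that transcribing cells take up, and alkylated the RNA with iodoacetamide so that labelled positions read as T-to-C mismatches. The groups were wild-type (WT) zygotes, zygotes with the genotype Pabpn1l-null and WT 2-cell embryos, with 2 samples each, and all came from mated females. Per the labels' protocols a sample held 50 embryos, taken 26 h after injection of hCG and kept for 2 h in 200 μM S4U. That text is the same for the 6 samples and names zygotes, and the age of the 2-cell embryos, the mouse strain and the kind of null allele were not stated. PABPN1L, which binds poly(A) tails in eggs and early embryos, is known for its part in the removal of maternal mRNA.

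The mitochondrial ribosome translates the few mRNAs of the mitochondrial genome, all of which encode subunits of the respiratory chain and the ATP synthase. Its RNAs are transcribed from mitochondrial DNA, whereas its proteins are encoded in the nucleus, made in the cytosol and imported. One class of these proteins has a counterpart in bacterial ribosomes, and the other is specific to mitochondria. The embryo receives its mitochondria from the egg, and the zygote lives on their oxidation of pyruvate.

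The table holds 1 pair of read counts per group, total reads and reads with a T-to-C mismatch. Counts are given below for the WT zygote, the null zygote and the 2-cell column, in this order. Total reads on the gene names came to 3001472, 1270347 and 4020444, of which 3.03%, 3.86% and 4.54% carried T-to-C. There was no column per sample, so no difference below has a replicate check, and each test compares the libraries behind 2 columns, not the conditions. Expected null counts were taken from the scaled WT zygote column. Of 1295 genes expected at 3 to 5 null reads 58.3% were at 0, against 2.45% for independent reads. This excess was treated as clumping of reads, which was not tested apart from other differences between the 2 columns. For this reason counts in all columns were divided by 7 reads per molecule. A gene was called at an adjusted p under 0.05 (exact conditional binomial test, two-sided, Benjamini-Hochberg over all genes tested) with a ratio of at least 2-fold, after TMM scaling, and intervals are exact 95% intervals that cover counting error only. Pabpn1l had 47, 4 and 14 reads, and the ratio of null to WT zygotes was 0.192 (interval 0.000387 to 2.24). Summed reads of 10 oocyte and zygote markers were 41483, 22078 and 17074, and those of 7 markers of the 2-cell embryo were 67, 8 and 11961. Markers of the cells around the egg summed to 177, 42 and 177 reads over 14 genes, those of sperm to 8, 0 and 4 and those of blood to 51, 1 and 47. In such pooled embryos, fewer cells and less RNA per cell cannot be told apart.

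Scaled reads of the mitochondrial ribosomal protein genes summed to less in the 2-cell column than in the WT zygote column. Their sum in the null column differed from that of WT zygotes by less than the counting error. Such levels are relative to the scaled reads of a column and are not amounts per embryo. The 76 genes together had 5115, 2350 and 4067 reads, or 1711, 1775 and 1050 RPM (reads per 1000000, after scaling). The ratio of summed reads was 0.614 (0.550 to 0.685) in 2-cell embryos and 1.04 (0.909 to 1.18) in null zygotes, both against the same WT zygote column. Most members were read at a low level. The median was 31.5, 16.5 and 27 reads per gene, 56 members were read in all 3 columns, and 8, 12 and 10 members were at 0. Mrpl21, Mrpl23 and Mrpl39 had no read in any column. The other untested members were Mrpl20, Mrpl42, Mrpl52, Mrps15, Mrps18c, Mrps28 and Mrps36, with 1 to 19 reads over the 3 columns. The 10 members with the most reads held 51.4%, 47.4% and 52.9% of the members' reads. Levels of different genes are not compared, since reads were not set against transcript length.

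**Figure D1:**
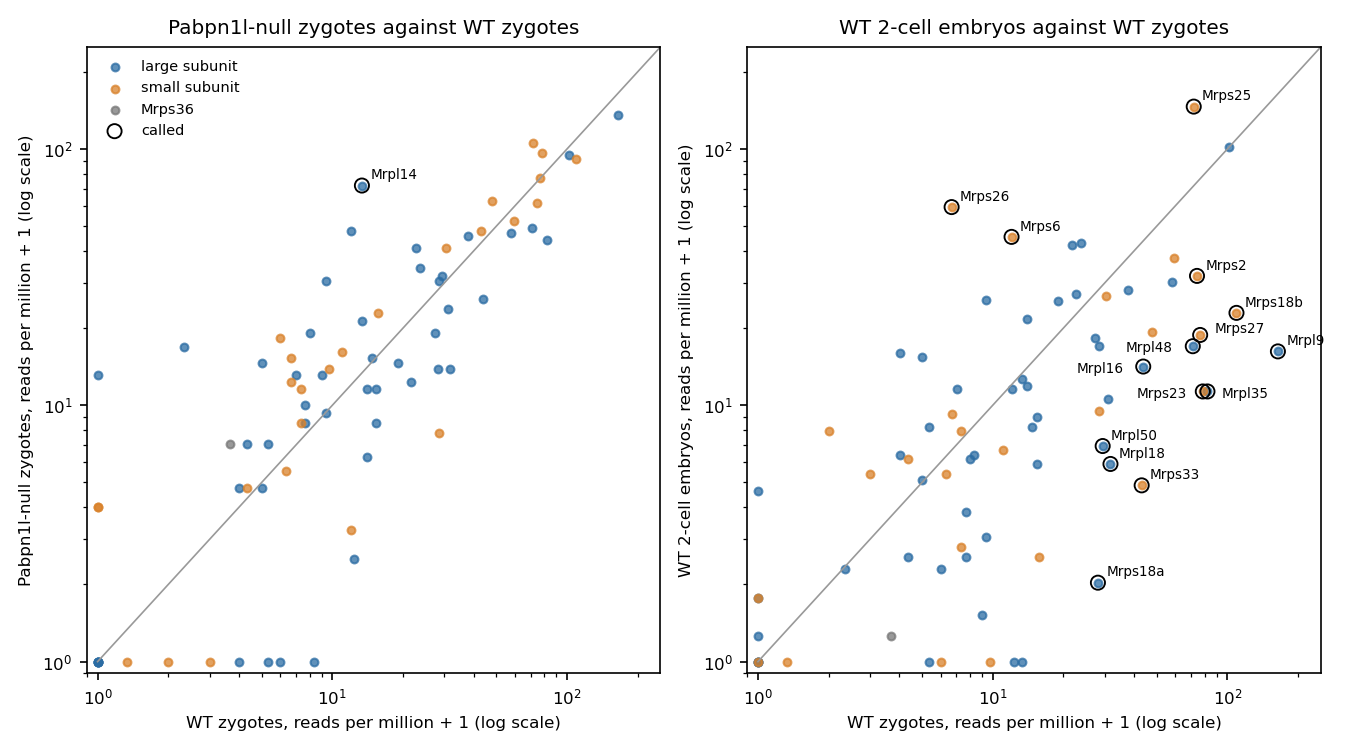
RPM after TMM scaling, plus 1, of each of the 76 members in WT zygotes (horizontal, log scale) against null zygotes and against 2-cell embryos (vertical, log scale), with points coloured by ribosomal subunit, circles around called members and a line at equal values. Against null zygotes 1 member is circled, and against 2-cell embryos 12 lie below the line and 3 above it.

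From WT zygotes to 2-cell embryos 12 of the 66 tested members fell and 3 rose. Over all 11262 genes tested, 32.4% were called, of which 15.9% of all genes were lower and 16.4% higher. The members' shares were 22.7% called, 18.2% lower and 4.55% higher, so the share of lower calls was near that of all genes and the share of higher calls was below it. The median log2 ratio of the tested members was -0.73, with quartiles at -1.92 and 0.38, beside a median of 0.04 over all genes tested. A log2 ratio above 0 was seen in 20 of the 66. At 1 read per molecule 28 members were lower and 7 higher, so the number of calls rests on that choice. With RLE factors 12 of the 15 calls were kept and none was added. The edgeR exact test at an assumed biological variation of 0.4 was run on reads not divided by 7. It also called 15 members, 14 lower and 1 higher, of which 8 were among the 15 calls above and 7 were others. Those 7 were also called at 1 read per molecule. Among genes with at least 100 reads in WT zygotes, a choice that uses one of the compared columns and leans towards lower ratios for any gene, the median was -1.63 for 15 members (9 lower, 1 higher) and -0.54 for 4368 genes, of which 35.8% were lower and 11.6% higher.

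In the large subunit 7 of 43 tested members fell and none rose, beside 15.9% lower and 16.4% higher over all genes tested. Mrpl9, the counterpart of a bacterial protein at the base of a stalk of the large subunit (chr3:94443154-94448708), had 488 reads in the WT zygote column, 179 in the null and 59 in the 2-cell column. It had the most reads of all members in zygotes and was low in 2-cell embryos only. Its ratio of 2-cell embryos to WT zygotes was 0.0933 (0.0398 to 0.191, adjusted p = 1.17e-15 in the exact conditional binomial test). Mrpl35, also of bacterial type (chr6:71812997-71823784), had 243, 57 and 40 reads, and its ratio was 0.127 (0.0424 to 0.311, adjusted p = 4.85e-07). Mrpl48, which is specific to mitochondria (chr7:100545779-100608301), had 210, 64 and 62 reads, and its ratio was 0.228 (0.0945 to 0.495). For Mrpl35 and Mrpl48 the 2-cell column was the deepest and still had the fewest reads.

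Mrps18a (chr17:46111004-46128908) carries a small-subunit name but sits in the large subunit. It had 81, 17 and 4 reads, the lowest ratio of the called members, 0.0381 (8.02e-05 to 0.386), from a 2-cell count below 1 molecule. Mrpl16, the counterpart of a bacterial protein close to the peptidyl transferase centre, had 128, 33 and 51 reads (ratio 0.308, 0.111 to 0.761). Mrpl18, of bacterial type, had 92, 17 and 19 reads (0.159, 0.0262 to 0.605). Mrpl50, specific to mitochondria, had 85, 41 and 23 reads (0.209, 0.0415 to 0.743). Scaled for the shallower null column, these 3 genes stood at 24.9, 12.8 and 31.0 RPM in null zygotes beside 42.8, 30.8 and 28.4 RPM in WT zygotes. Mrpl11, part of the factor-binding stalk base, and Mrpl33 had 37, 27 and 0 reads and 34, 2 and 0 reads. Their WT zygote levels stood 2.28-fold and 2.10-fold above a floor of 3 molecules in the 2-cell column, without the counting error of the zygote count. The exact intervals of their 2-cell ratios reached up to 0.779 and 0.878, and neither was called.

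In the small subunit 5 of 23 tested members fell, beside 15.9% of all genes tested. Mrps18b (chr17:35910380-35916440) had 324, 120 and 85 reads, and its ratio was 0.203 (0.0981 to 0.387, adjusted p = 4.23e-07). Mrps23 (chr11:88194106-88211507) had 232, 126 and 40 reads, with a ratio of 0.133 (0.0443 to 0.327, adjusted p = 1.33e-06). Mrps27, a pentatricopeptide repeat protein of a family that binds RNA (chr13:99344767-99415562), had 226, 101 and 69 reads, with a ratio of 0.236 (0.103 to 0.493). All of these are specific to mitochondria, and in each the scaled null level lay close to that of WT zygotes (90.7, 95.2 and 76.3 against 108, 77.6 and 75.6 RPM) and the 2-cell level below both. Mrps33, likewise specific to mitochondria, had 126, 62 and 15 reads and a ratio of 0.0919 (0.0115 to 0.370). Mrps2, the bacterial-type member of the group, had 219, 80 and 120 reads and the mildest called fall, to 0.423 (0.220 to 0.786, adjusted p = 0.0162 in the exact conditional binomial test). Among the falls, the calls of Mrps2, Mrpl16 and Mrpl50 were lost with RLE factors and in the edgeR test, and those of Mrpl48 and Mrps27 in the edgeR test.

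The 3 members that rose all belong to the small subunit, with 23 tested members, and 16.4% of all genes tested were higher. Mrps26, specific to mitochondria (chr2:130563757-130565394), had 17, 19 and 226 reads, and its ratio was 10.3 (2.90 to 67.1, adjusted p = 2.73e-05). Its counts were low in both kinds of zygote and high in the 2-cell column. Mrps6, of bacterial type (chr16:92058336-92112227), had 33, 3 and 172 reads and a ratio of 4.02 (1.48 to 14, adjusted p = 0.0107). Mrps25, specific to mitochondria (chr6:92169512-92184023), had 212, 139 and 563 reads and a ratio of 2.05 (1.33 to 3.23, adjusted p = 0.00247). The calls of Mrps6 and Mrps25 were lost in the edgeR test, and that of Mrps25 with column totals as well. Mrps25 was the member with the most reads at the 2-cell stage, and without it the ratio of summed reads of the members was 0.552 (0.491 to 0.620).

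Genes that share bases with a neighbour need a caution, since no source used here states the strand on which reads were counted. In RefSeq, Mrps25 overlaps Nr2c2, a nuclear receptor gene, over 3547 bases, and Nr2c2 had 21, 0 and 936 reads. Mrps6 overlaps Slc5a3, a myo-inositol transporter gene, over 29138 bases, and Slc5a3 had 25, 6 and 106 reads. Both neighbours were high in the 2-cell column, as were Mrps25 and Mrps6, and their part in these counts was not tested. Mrps26 overlaps no coding gene. Among the members that fell, Mrpl48 overlaps Rab6a over 727 bases (609, 337 and 939 reads), Mrpl18 overlaps Tcp1 over 1459 bases (79, 59 and 111 reads) and Mrps18a overlaps Rsph9 over 6871 bases (1, 0 and 0 reads). In all, 19 members overlap a coding gene. Of the 48 tested members without such an overlap 7 fell and 1 rose, beside 15.9% and 16.4% of all genes tested. Their median log2 ratio was -0.65, and their ratio of summed reads was 0.566 (0.494 to 0.649). Mrpl48 also has a pseudogene named after it in RefSeq, as do Mrpl23, Mrpl27 and Mrps36, and how reads were split between such copies was not stated.

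**Figure D2:**
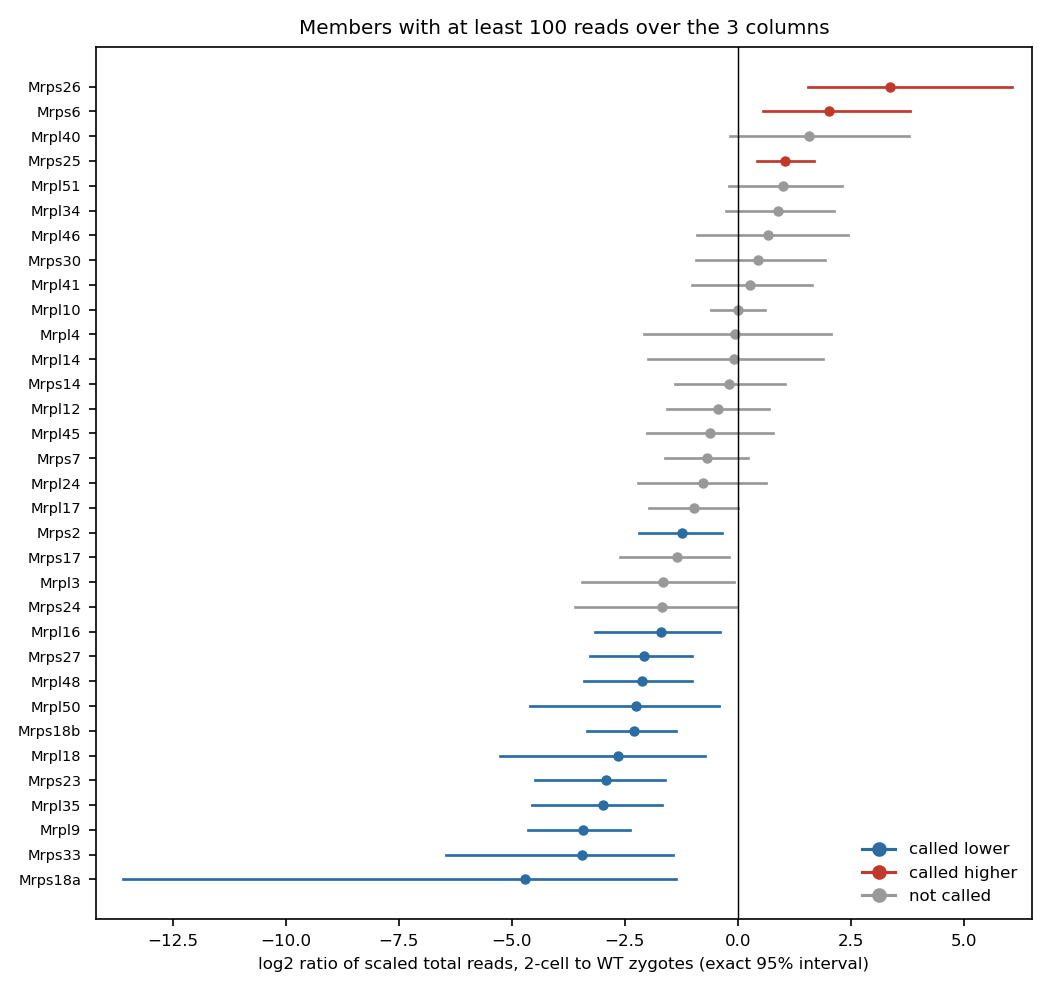
The log2 ratio of scaled total reads, 2-cell embryos to WT zygotes (horizontal), for the 33 members with at least 100 reads over the 3 columns, with exact 95% intervals on molecules of 7 reads and colours for the call. Mrps18a lies lowest and Mrps26 highest, and the intervals of Mrpl10, Mrpl4 and Mrpl14 are centred close to 0.

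Several well-read members did not pass the test. Mrpl10, which anchors the stalk of the large subunit, had 302, 124 and 390 reads, and its ratios were 0.928 (0.502 to 1.65) in null zygotes and 0.997 (0.658 to 1.52) in 2-cell embryos. Mrpl12, the stalk protein itself, had 110, 59 and 105 reads, with a 2-cell ratio of 0.737 (0.338 to 1.60). Mrpl17, at the exit of the peptide tunnel, had 170, 61 and 113 reads and a 2-cell ratio of 0.513 (0.256 to 1.003). Mrps7, a bacterial-type protein of the head of the small subunit, had 175, 68 and 141 reads and a ratio of 0.622 (0.328 to 1.17). Each of these intervals held 1. Mrpl40 (25, 39 and 96 reads) and Mrpl51 (62, 15 and 159 reads), both specific to mitochondria, had 2-cell ratios of 2.96 (0.887 to 13.6) and 1.98 (0.877 to 4.90).

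By subunit and type, the summed reads of every class had a 2-cell ratio below 1. It was 0.575 (0.496 to 0.665) for 49 large-subunit genes and 0.673 (0.567 to 0.798) for 26 small-subunit genes, with median log2 ratios of -0.74 and -0.72. Within the large subunit, the 30 genes of bacterial type stood at 0.482 (0.4005 to 0.578) and the 19 genes specific to mitochondria at 0.812 (0.628 to 1.05). In the small subunit these types stood at 0.665 (0.509 to 0.867) and 0.679 (0.542 to 0.850). Median log2 ratios of these types were -0.94 and -0.48 in the large subunit and -0.67 and -1.70 in the small one. Of the small-subunit genes specific to mitochondria, 4 of 10 tested fell and 2 rose, beside 15.9% and 16.4% of all genes tested. Mrps25 and Mrps26 held 563 and 226 of the 1059 2-cell reads of this class. The 5 genes of the stalk summed to 0.838 (0.596 to 1.18), and the 8 genes around the tunnel exit to 0.539 (0.352 to 0.818). Mrps36, a member by name with 8, 8 and 1 reads, was assigned to neither subunit and to neither type. Differences between classes were not tested.

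In null zygotes 1 of the 66 tested members was called, Mrpl14, and none was lower. Over all genes tested, 1.36% were called against WT zygotes, 0.684% higher and 0.675% lower, so the members' share of 1.52% was near the background. Mrpl14, whose bacterial counterpart lies on the face of the large subunit that meets the small one (chr17:45685722-45698495), had 37, 94 and 45 reads. The null column was thus the highest although it was the shallowest, and the ratio was 5.74 (1.97 to 19.8, adjusted p = 0.0269 in the exact conditional binomial test). Tmem63b, a membrane protein gene that overlaps Mrpl14 over 622 bases, had 145, 78 and 417 reads. In the edgeR test Mrpl14 was not called (log2 ratio 2.52, adjusted p = 0.135), beside a log2 ratio of 2.38 in the exact conditional binomial test, and a filter of 50 reads in at least 2 columns left it untested. Unadjusted p was under 0.05 for 2 of the 66 members. The other was Mrpl4, a bacterial-type protein with 33, 62 and 41 reads and a ratio of 4.24 (1.25 to 16.8, adjusted p = 0.295 in the same exact test).

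The members' ratios in null zygotes centred near 1. The median log2 ratio was 0.08 with quartiles at -0.52 and 0.52, beside -0.15 over all genes tested, and 35 of 66 were above 0. The summed reads of the large subunit had a ratio of 0.995 (0.834 to 1.18) and those of the small subunit 1.10 (0.892 to 1.34). The 12 members that fell from WT zygotes to 2-cell embryos had null ratios from 0.417 in Mrpl18 to 1.23 in Mrps23, with 8 of the 12 below 1, and the null interval of each spanned 1. Both comparisons share the WT zygote column. Mrps24, of bacterial type, and Mrps6 had the lowest null ratios among members with at least 100 reads, 0.248 (0.0115 to 1.44) from 82, 9 and 33 reads and 0.205 (5.73e-05 to 3.44, from 33, 3 and 172 reads). Mrpl40 and Mrpl41, both specific to mitochondria, and Mrps26 had null ratios of 3.52 (0.775 to 18.9), 1.84 (0.608 to 5.39, from 65, 53 and 101 reads) and 2.52 (0.284 to 24.3). None of these was called.

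The other genes of mitochondrial translation were read from fixed lists, beside 15.9% lower and 16.4% higher over all genes tested in 2-cell embryos. Of 6 tested mitochondrial ribosome proteins without an Mrpl or Mrps name, 3 fell in 2-cell embryos and none rose, and the summed ratio was 0.449 (0.319 to 0.626). Dap3, a GTP-binding protein of the small subunit, had 240, 92 and 73 reads and a ratio of 0.235 (0.105 to 0.480). Gadd45gip1 (253, 123 and 128 reads) and Ict1, a peptidyl-tRNA hydrolase built into the large subunit (74, 21 and 16 reads), stood at 0.391 (0.210 to 0.704) and 0.167 (0.0216 to 0.723). Of 9 translation factors, Gfm2 and Mrrf fell, with 206, 42 and 79 reads and 103, 16 and 33 reads, and none rose. Both proteins recycle the mitochondrial ribosome after termination. Of 13 assembly and rRNA factors, Gtpbp10, Ngrn and the rRNA methyltransferase Tfb1m fell, the last with 160, 27 and 25 reads, and Trub2, a pseudouridine synthase, rose with 71, 29 and 304 reads.

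Of 8 mitochondrial aminoacyl-tRNA synthetases, Lars2 and Mars2 rose and none fell, beside 16.4% higher and 15.9% lower over all genes tested. Lars2 alone had 1414, 1730 and 16693 reads, and without it the summed ratio of the list was 0.939 (0.623 to 1.42). Of the Lars2 reads 787, 638 and 992 carried T-to-C. With Lars2, the T-to-C share of the list was 45.5%, 35.1% and 5.84%, beside 3.03%, 3.86% and 4.54% over all genes. Whether all reads counted on Lars2 are its mRNA was not tested. Among 5 genes of mitochondrial DNA and transcription, Tfam, which packages mitochondrial DNA, fell with 229, 48 and 69 reads and Tfb2m, a transcription factor of mitochondria, rose with 106, 30 and 320 reads. No gene of these lists passed the test in null zygotes except Lars2, which was higher, beside 1.36% of all genes tested.

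**Figure D3:**
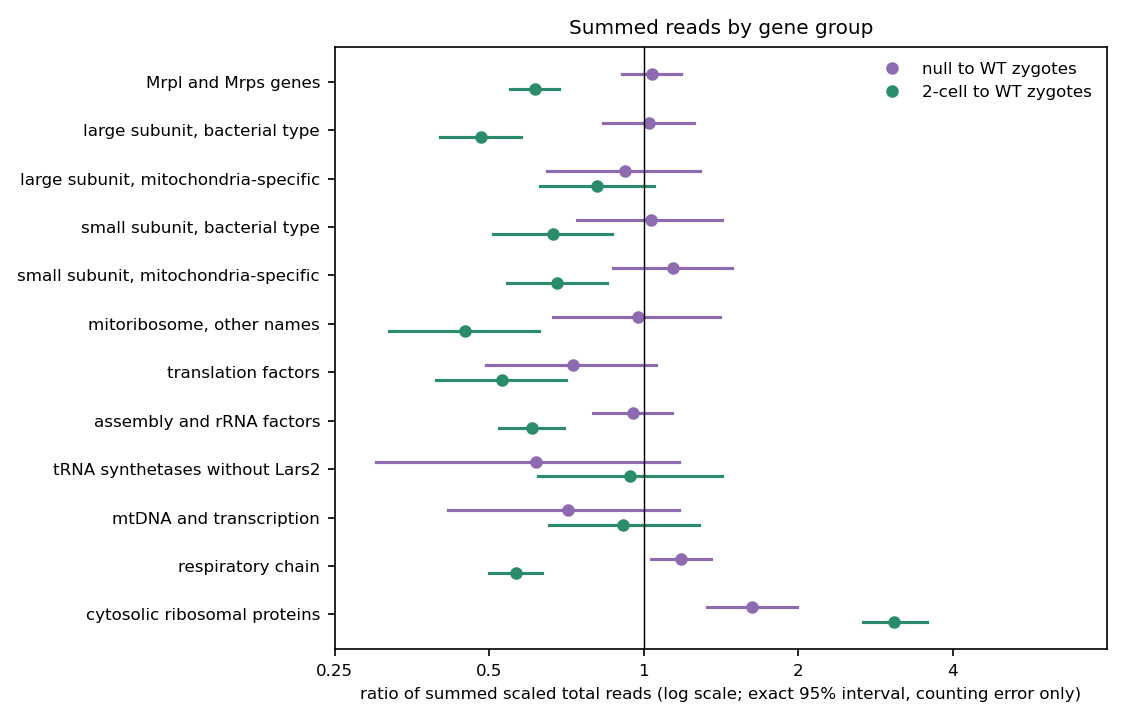
Ratio of summed scaled total reads (horizontal, log scale) of null zygotes (purple) and 2-cell embryos (green) to WT zygotes, for the members, their classes and other gene lists, with exact 95% intervals that cover counting error. The 2-cell ratio of the members is 0.614 and that of the respiratory chain is 0.563, whereas cytosolic ribosomal proteins stand at 3.08.

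Nuclear-encoded genes of the respiratory chain, and those of cytosolic ribosomal proteins, frame these values. The 85 respiratory chain genes had a summed 2-cell ratio of 0.563 (0.499 to 0.635), with 9 of 50 tested genes lower and 1 higher. The 84 cytosolic ribosomal protein genes had a summed 2-cell ratio of 3.08 (2.67 to 3.56), with 8 of 39 tested genes higher and 2 lower. Their median log2 ratio was 0.77. Over all genes tested 15.9% were lower and 16.4% higher in 2-cell embryos. In null zygotes these lists stood at 1.18 (1.03 to 1.35) and 1.63 (1.33 to 1.99). The intervals of the members and of the respiratory chain overlapped at the 2-cell stage, and that of the cytosolic ribosome lay apart from both. Cytosolic ribosomal protein genes have many pseudogenes, and the split of reads among copies was not stated.

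T-to-C reads of the members were few. They came to 173 of 5115, 51 of 2350 and 148 of 4067 reads, or 3.38% (2.19 to 4.96), 2.17% (0.896 to 4.36) and 3.64% (2.27 to 5.50), and 30, 15 and 35 of the 76 members had any. In each column the interval held the share over all genes. Without an unlabelled control, the part that stems from sequencing error is not known. Only 14 members had the 10 T-to-C reads needed for a test. None was called by the exact conditional binomial test in either comparison, beside 0.0457% of 4376 genes in null zygotes and 5.74% in 2-cell embryos (4.18% higher and 1.55% lower), and none had an unadjusted p under 0.05. At 1 read per molecule 3 were higher and 2 lower in null zygotes, and 2 higher and 4 lower in 2-cell embryos.

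Single genes held much of this signal. The 4 members with the most T-to-C reads in a column held 76 of 173, 37 of 51 and 53 of 148. Mrpl12 carried T-to-C in 35 of 110, 3 of 59 and 11 of 105 reads, or 31.8% (11.2 to 59.5), 5.08% (0.00158 to 42.5) and 10.5% (0.841 to 36.9). Its share was not called by Fisher's exact test in either comparison, and at 1 read per molecule it was called in both. Mrpl45, which ties the ribosome to the inner membrane, carried 16 of 79, 0 of 24 and 7 of 67. Mrpl15, of bacterial type, carried 6 of 18, 8 of 16 and 14 of 41. In Mrpl9 the T-to-C reads numbered 16 of 488, 2 of 179 and 0 of 59, and 0 of 59 reads allows a share of up to 35.4% (exact limit on molecules).

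The 3 members that rose carried few T-to-C reads. Mrps25 had 5, 10 and 16, or 2.36%, 7.19% and 2.84% of its reads. Mrps26 had 0, 0 and 6, and Mrps6 had 0, 0 and 2. Against these stand Mrpl48, with 0 of 210, 0 of 64 and 12 of 62, or 19.4% (1.87 to 57.5) in 2-cell embryos, and Mrpl3, of bacterial type, with 0 of 90, 0 of 30 and 11 of 37, or 29.7% (2.46 to 77.7). Their T-to-C reads stood in the 2-cell column alone while their total level in RPM was lowest there. Mrpl48 overlaps Rab6a, which had 939 reads in the 2-cell column, and the part of Rab6a in these reads was not tested. The T-to-C share could be tested in 35 members at the 2-cell stage and in 29 in null zygotes. None was called by Fisher's exact test, beside 1.91% of 6909 genes (1.85% higher and 0.0579% lower) and 0 of 5999 genes, and Mrpl48 alone had an unadjusted p under 0.05 (0.0486, adjusted p = 1, Fisher's exact test).

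Among members with at least 100 reads in 2-cell embryos the T-to-C reads ran from 0 of 101 in Mrpl41, 1 of 159 in Mrpl51, 1 of 141 in Mrps7, 3 of 390 in Mrpl10 and 1 of 120 in Mrps2 to 7 of 113 in Mrpl17 and 11 of 105 in Mrpl12. Mrps14, a bacterial-type protein with 88, 53 and 100 reads, had 0, 0 and 3. The share over all genes of that column was 4.54%, and Mrpl12 and Mrpl17 lay above it.

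The authors marked genes as Positive or Negative for labelled RNA in each column. Mrpl12, Mrpl36 and Mrpl45 were Positive in WT zygotes, Mrpl15, Mrpl30 and Mrpl52 in null zygotes, and Mrpl3 and Mrpl15 in 2-cell embryos. Among the 66 tested members this is 3, 2 and 2 genes, beside 5.90%, 8.76% and 12% of all genes tested. Mrpl52, the untested one, had 0, 16 and 3 reads, of which 10 of the 16 carried T-to-C. Mrpl15 was the single member marked in more than 1 column. Mrpl14, the member that rose in null zygotes, had no T-to-C read in any column.

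**Figure D4:**
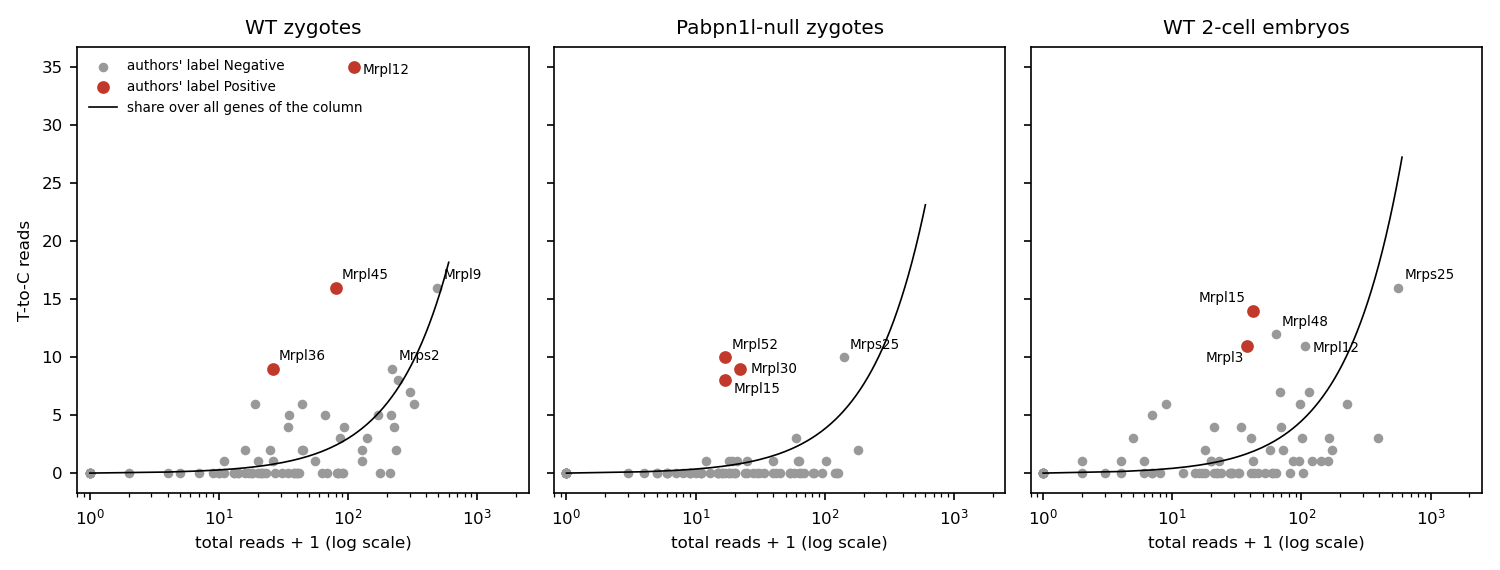
T-to-C reads (vertical) against total reads plus 1 (horizontal, log scale) of each member in the 3 groups, with the authors' Positive label in red and a line at the share over all genes of the column. Mrpl12 stands highest with 35 T-to-C reads of 110 in WT zygotes, and most members lie at 0 or close to it.

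The promoters of the members were read next, since nuclear factors named for this gene family, NRF1 and the ETS factor GABP, bind letters that can be searched. RefSeq promoters on GRCm38.p6 (250 bases before to 50 after the start) matched 67 of the 76 members with 73 promoters. Those of Mrpl4, Mrpl13, Mrpl15, Mrpl19, Mrpl38, Mrpl54, Mrps28, Mrps34 and Mrps35 were not used here. The ETS letters CCGGAAG, on either strand, were in 24 of 73 member promoters (32.9%), in 16.6% of the 10157 promoters of tested genes and in 8.86% of all 32851 promoters. The NRF1 palindrome, GCGC and TGCGC with 1 base of any kind between them, was in 16.4%, 9.74% and 4.603%, and the YY1 letters, AAG followed by ATGGCGG, were in 6.85%, 1.94% and 0.852%. The GC box GGGCGG was in 52.1%, 61.7% and 35.7%, and the box CCAAT in 41.1%, 38.7% and 37.4%. TATAAA was in 6.85%, 7.35% and 13.6%, and CACGTG, the letters bound by MYC, in 9.59%, 9.88% and 7.15%. At least 1 of the ETS, NRF1 and YY1 letters stood in 49.3% of member promoters and in 25.6% of those of tested genes, while the median GC content was 58.3% and 60.7%. A match is a description of letters and not a bound site.

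Upstream sequences follow for members that fell, for members that rose and for the gap between a pair of members with divergent starts. Each runs 5′ to 3′ on the gene's strand up to the base before the start used in the promoter table. Capitals mark an ETS, NRF1 or YY1 match. In Mrpl9 and Mrps27 that start lies inside the RefSeq gene span given above, so that all of the Mrpl9 stretch and the last bases of the Mrps27 stretch lie within the span. Mrpl9 (chr3:94443186-94443335, plus strand) has an NRF1 match that begins 28 bases before the start, and Mrps27 (chr13:99344679-99344785, plus strand) has an ETS match that begins 48 bases before it. Mrps26 (chr2:130563607-130563756, plus strand) has an ETS match that begins 14 bases before its start. Mrps18b (chr17:35916441-35916590, minus strand) and Mrps25 (chr6:92184024-92184173, minus strand) have no match in these windows. The gap between Mrps11 and Mrpl46 (chr7:78783090-78783130) has none either. Outside the printed stretches, the full promoter of Mrps18b holds ETS letters and that of Mrps26 the NRF1 palindrome. Those of Mrps27 and Mrps11 hold the YY1 letters there.
Mrpl9: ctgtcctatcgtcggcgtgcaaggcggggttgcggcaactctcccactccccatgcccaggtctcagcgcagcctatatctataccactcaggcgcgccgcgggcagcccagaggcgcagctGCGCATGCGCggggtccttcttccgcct
Mrps27: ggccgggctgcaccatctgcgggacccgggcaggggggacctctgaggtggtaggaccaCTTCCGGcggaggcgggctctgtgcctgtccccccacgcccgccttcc
Mrps18b: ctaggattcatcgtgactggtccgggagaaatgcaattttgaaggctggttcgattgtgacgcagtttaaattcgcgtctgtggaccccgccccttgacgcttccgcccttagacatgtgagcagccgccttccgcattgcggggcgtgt
Mrps26: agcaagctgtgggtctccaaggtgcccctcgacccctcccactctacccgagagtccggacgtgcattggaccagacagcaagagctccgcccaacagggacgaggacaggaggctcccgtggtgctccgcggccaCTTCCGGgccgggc
Mrps25: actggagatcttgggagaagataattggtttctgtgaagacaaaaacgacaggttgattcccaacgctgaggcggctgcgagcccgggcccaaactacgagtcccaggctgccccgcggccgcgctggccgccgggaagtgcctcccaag
Mrps11 to Mrpl46: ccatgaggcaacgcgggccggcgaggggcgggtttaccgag

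Matches were also counted by direction at the 2-cell stage. ETS letters were in 7 of 15 promoters of members that fell, in 1 of 3 of those that rose and in 13 of 46 of those tested and not called. These counts are too small to compare. Of the factors named for this gene family, Yy1 (25, 10 and 1113 reads), Gabpa (11, 0 and 365 reads) and Gabpb1 (84, 56 and 328 reads) rose in 2-cell embryos, and Nrf1 fell with 122, 38 and 20 reads. Of the 8 tested regulators 3 rose and 1 fell in 2-cell embryos, beside 16.4% and 15.9% of all genes tested. None was called in null zygotes, beside 1.36% of all genes tested.

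Many members have a start on the other strand nearby. Only starts upstream on the opposite strand, within 1000 bases, were counted. Such a divergent start was found for 25 of 67 members (37.3%), for 18.8% of 7948 tested genes and for 12.2% of all genes with a promoter entry. Mrps11 and Mrpl46 are members that face away from each other with starts 42 bases apart, and they had 17, 15 and 32 reads and 39, 14 and 80 reads. Mrps18b fell from 324 to 85 reads, whereas Ppp1r10, 756 bases away, had 184, 56 and 613 reads. Mrps26 had 226 reads in 2-cell embryos, and 4930473A02Rik, 8 bases away, had 9, 0 and 3. Mrps27 had 226, 101 and 69 reads, and Ptcd2, 108 bases away, had 128, 76 and 92. Mrpl18 had 92, 17 and 19 reads, and Tcp1, a subunit of the cytosolic chaperonin whose start lies 238 bases away, had 79, 59 and 111. Whether the members of a pair differ was not tested.

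**Figure D5:**
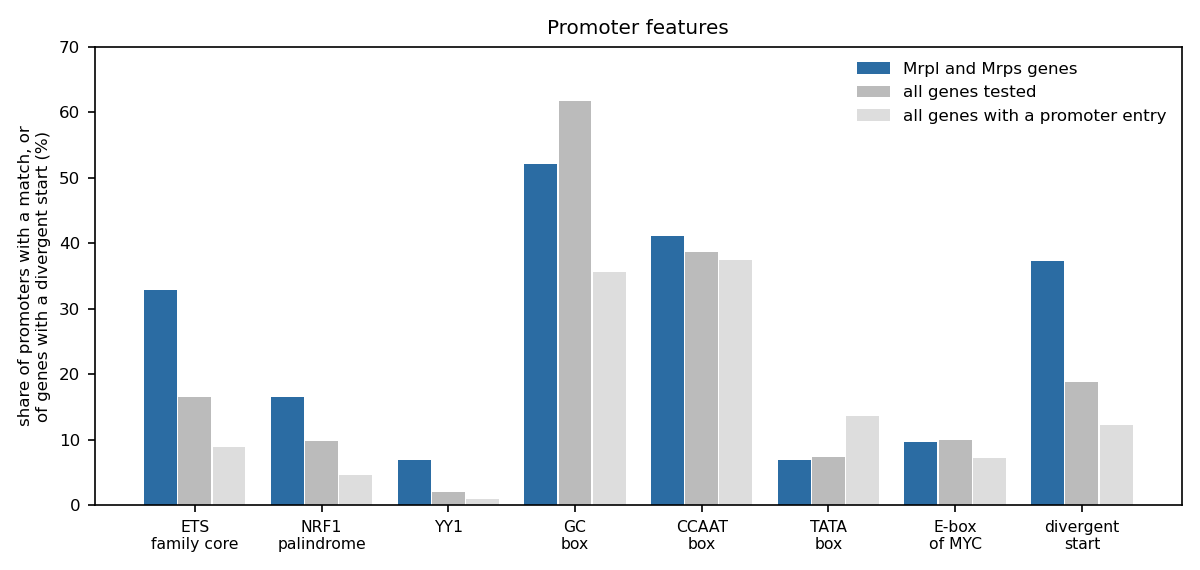
Share (%) of promoters with a match to each set of letters, and of genes with an upstream start on the opposite strand within 1000 bases. Bars are for the members, for all genes tested and for all genes with a promoter entry. The members' bars stand highest for the ETS, NRF1 and YY1 letters and for the divergent start, and lie close to those of tested genes for the CCAAT, TATA and MYC letters.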

How the data were processed

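The members and the gene lists were chosen with earlier results of these data known. The deposited table gives, per the file headers, counts of reads and of reads with T-to-C for each row, made by the authors, with a Positive or Negative label. The build was mm10, per the submitters' processing notes. Aligner, counter, annotation and duplicate handling are not given in the sources. Nor is it given whether a column merges the 2 samples of its group. Of 30493 rows, 47 carry a date in place of a name and were left out. Of the members, 7 stood on several rows, and 2 of these (Mrpl1, Mrpl15) on rows that differ.

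Columns were scaled by TMM factors (edgeR 4.0.16, R 4.3.3) of 0.996 (WT zygotes), 1.04 (null zygotes) and 0.963 (2-cell embryos). Tests and intervals used Python 3.11.15 with SciPy 1.17.1 and statsmodels 0.14.6, on counts divided by 7 reads per molecule, and 0.5 molecule was added before a log2 ratio. The value 7 was estimated from zeros of the null column (7.21 and 7.32 reads per molecule in 2 ranges of expected counts), after an analysis on single reads. The expected counts came from the scaled WT zygote column. Genes were tested with at least 20 total reads or 10 T-to-C reads over the 3 columns, and shares with at least 20 reads in both columns. The procedure was tested on simulated counts, drawn in the same clumps of 7 reads that the tests assume. No variation between libraries was simulated, so this does not show how calls behave in the real columns. Named members are those called, the 10 with the most reads, the 5 at each end of both ratios among members with at least 100 reads, the 5 with the most T-to-C reads and the 5 at each end of the 2-cell T-to-C share. Mrpl11, Mrpl33, Mrpl3, Mrpl36, Mrpl30, Mrpl52, Mrps11, Mrpl46 and the untested members were named after their values were seen, as were the neighbours of members and the genes called in the other lists. Coordinates are those of RefSeq on GRCm38.p6, the assembly of mm10. The alternatives were RLE factors, column totals, other filters, 1 read per molecule, a clump size in the null column alone, 1 read added before the log2 ratio and distinct rows summed. An edgeR test on undivided reads at an assumed biological variation of 0.4 and the count without overlapping members were added after seeing the data. PCR copies are not independent molecules, so intervals and floors cover counting error only.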

Additional observations from a re-analysis of the deposited data

How the results depend on the processing

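No called value changed direction under the alternatives run, and the 2-cell calls depended on the reads counted as 1 molecule. With 1 read per molecule 28 members were lower and 7 higher in 2-cell embryos, and 8 were higher and 8 lower in null zygotes. With clumps of 7 reads in the null column alone the 2-cell counts were again 28 and 7, and 2 members were higher in null zygotes. T-to-C reads then gave 2 higher and 4 lower members in 2-cell embryos under both settings, and 3 higher and 2 lower in null zygotes at 1 read per molecule. The T-to-C share gave 4 members in 2-cell embryos and 1 in null zygotes at 1 read per molecule.

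RLE factors shifted the median of all genes in 2-cell embryos from 0.04 to 0.28 and the members' median from -0.73 to -0.49. Among all genes called in 2-cell embryos, the share that was higher went from 50.7% to 61.4%. Of the 15 members called in 2-cell embryos, 12 kept their call (not Mrpl16, Mrpl50 and Mrps2). Column totals kept 14 (not Mrps25) and added Mrps17. A filter of 50 reads in at least 2 columns left 22 members and gave 1 higher in 2-cell embryos and 0 in null zygotes. It moved the members' null median from 0.08 to -0.14. The share of higher among genes called in 2-cell embryos was then 34.1%. This filter kept 10 of the 15 calls, since Mrpl18, Mrpl50, Mrps18a, Mrps26 and Mrps6 were no longer tested, and added Mrps17. It left no member for T-to-C reads. Without members that overlap a coding gene, 1 was higher and 7 lower in 2-cell embryos and 0 higher in null zygotes. The edgeR exact test on undivided reads at an assumed variation of 0.4, chosen after seeing the data, gave 1 higher and 14 lower in 2-cell embryos. It gave 0 in null zygotes. It kept 8 of the 15 (not Mrpl16, Mrpl48, Mrpl50, Mrps2, Mrps25, Mrps27 and Mrps6) and called 7 others, Mrpl11, Mrpl32, Mrpl33, Mrpl47, Mrps5, Mrps21 and Mrps31. Mrpl14 in null zygotes was not called in that test at a log2 ratio of 2.52, and the 50-read filter left it untested.

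No paired analysis was possible because the table has 1 pair of columns per group and the columns carry no replicate number, and for the same reason leaving out single libraries was not run. As to depth, with 3 molecules as the floor, a member needed more than 21 reads before a count of 0 was set against that floor.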
